A study of Homo sapiens with 8 samples.

Results

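Interferon-stimulated genes (ISGs) are genes whose transcription is switched on when a cell senses interferon, and their RNA was followed here in SEM cells that had become resistant to the degradation of CTCF. The 44 ISGs were listed by gene name, with earlier results of these data known, and 43 of them were found by gene symbol among the 60754 rows of the deposited table. The remaining member was not analysed here. Of the 43 genes, 37 reached a level of 1 TPM, a unit that scales reads for transcript length and for the library total, in at least 1 library and were tested, and 6 (*OASL*, *IFIT1*, *IFITM3*, *IFI27*, *IFI44L* and *EPSTI1*) stayed below 1 TPM in all 8 libraries, with a highest value of 0.73 TPM. SEM is an established line of human B-ALL (acute lymphoblastic leukemia of the B lineage) with a rearranged *KMT2A* gene. In the CTCF-AID2 cells used here, both alleles of *CTCF* carried a miniAID-mClover3 tag at their 3′ end, and a lentiviral cassette with the MND promoter expressed OsTIR1(F74G) together with Zeocin resistance, so that the auxin analog 5-Ph-IAA led to degradation of the tagged protein. Parental cells of the clones C17.2 and C3.2 were untreated. Resistant cells of the same clones carried the same tag and cassette, had been kept under both 5-Ph-IAA (1 μM) and Zeocin (100 μg/ml) for up to 36 days, and had been without treatment for 48 h. The labels give the agents, their doses and the last day of culture, whereas the use of both agents in these clones and the washout come from the description of the study and were matched to the libraries by clone and state. By that description, resistant cells of C17.2 held a truncated CTCF without the tag beside tagged CTCF, which returned after washout and was still degraded under 5-Ph-IAA, and those of C3.2 made full-length CTCF with a mutated miniAID. Each line is a single clone, each of the 4 groups had 2 libraries of ribosomal RNA-depleted total RNA, and the sources do not say whether these came from separate cultures, so the p-values measure the spread between libraries, which may be technical.

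Type I interferons bind the receptor made of IFNAR1 and IFNAR2, whose kinases JAK1 and TYK2 phosphorylate STAT proteins. Among these, STAT2 joins IRF9 in the ISGF3 complex, which binds the interferon-stimulated response element (ISRE) in promoters, whereas type II interferon acts through the gamma-activated sequence (GAS). Many ISG products sense viral RNA, block viral replication or regulate the response itself, and many cells hold a low constitutive level of them without added interferon. None of the labels names an interferon treatment in these cells.

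Promoters were examined because interferon acts on ISGs through the ISRE and GAS elements. RefSeq promoter windows on GRCh38.p14, which run from 250 bases before to 50 bases after a start, were matched for 34 of the 43 genes. An ISRE core, searched on both strands as GAAA followed, after 2 bases of any kind, by a further GAAA, was present in 22 of the 34 genes, against 4.38% of all 27305 genes with a window. A GAS core, searched as TTCNNNGAA, which reads alike on both strands, was present in 9 of the 34, against 9.38% of all genes. The stretches below belong to 5 members whose RNA passed the test in C17.2 and to *ISG15*, whose RNA differed between the parental clones, and they were kept to bases outside the exons of protein-coding genes. Each is written 5′ to 3′ on the strand of its gene, with capitals marking the ISRE core, or the GAS core in *IRF1*.
SAMD9: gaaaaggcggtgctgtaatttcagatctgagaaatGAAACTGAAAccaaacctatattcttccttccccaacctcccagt
LGALS3BP: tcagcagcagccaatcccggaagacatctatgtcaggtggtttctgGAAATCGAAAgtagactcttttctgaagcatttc
IFIT3: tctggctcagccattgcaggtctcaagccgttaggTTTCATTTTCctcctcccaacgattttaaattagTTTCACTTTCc
HERC5: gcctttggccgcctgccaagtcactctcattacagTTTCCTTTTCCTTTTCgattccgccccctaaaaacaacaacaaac
ISG15: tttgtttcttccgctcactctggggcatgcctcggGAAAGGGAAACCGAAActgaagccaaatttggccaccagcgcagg
IRF1: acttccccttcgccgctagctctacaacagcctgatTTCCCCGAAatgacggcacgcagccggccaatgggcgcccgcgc

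The *SAMD9* stretch lies at chr7:93118071-93118150 on the reverse strand and that of *LGALS3BP* at chr17:78979948-78980027 on the reverse strand. The stretches of *IFIT3* (chr10:89327806-89327885), *HERC5* (chr4:88456959-88457038) and *ISG15* (chr1:1013349-1013428) lie on the forward strand, and each holds 2 ISRE cores, which overlap in *HERC5* and *ISG15*. The *IRF1* stretch lies at chr5:132490854-132490933 on the reverse strand. In *IRF1* no ISRE core was found in the window, and for *XAF1* neither core was found in either of its 2 windows. A match is a run of letters and not evidence of binding. Of the 29 tested members with a window, 17 held an ISRE core, of which 2 were called higher and 6 lower in C17.2, and 12 held none, of which 0 were called higher and 4 lower. In C3.2, 1 rose and 1 fell of the 17, and 0 rose and 3 fell of the 12. Over all tested genes 13.4% were called higher and 13.9% lower in C17.2, and 4.46% and 6.90% in C3.2. The median log2 fold changes of these members in C17.2 were −0.20 with and −0.12 without an ISRE core. In C3.2 the order was reversed, at −0.021 with and −0.078 without an ISRE core.

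Levels of the members spanned a wide range in every library. *IFITM2*, a membrane protein that restricts viral entry, was the most abundant, with between 327 and 367 TPM, which was 41.9% to 47.8% of the summed TPM of the 43 genes. The sum itself lay between 718 and 836 TPM. *ADAR*, an RNA-editing enzyme, followed with 46.1 to 61.8 TPM, and only 15 members had a mean of at least 10 TPM. At the other end, *IFIT1* was at 0.08 to 0.17 TPM and *OASL* at 0.05 to 0.16 TPM. Classical ISGs thus differed widely in level in cells for which no interferon treatment is named. TPM is a level per transcript length, so these levels can be compared between genes, although TPM carries no record of sequencing depth and gives no counting error. *IFITM1*, *IFITM2* and *IFITM3* share between 6.08% and 10.3% of their 100-base exon windows with other genes, mainly one another, so reads may have been divided between them.

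**Figure D1:**
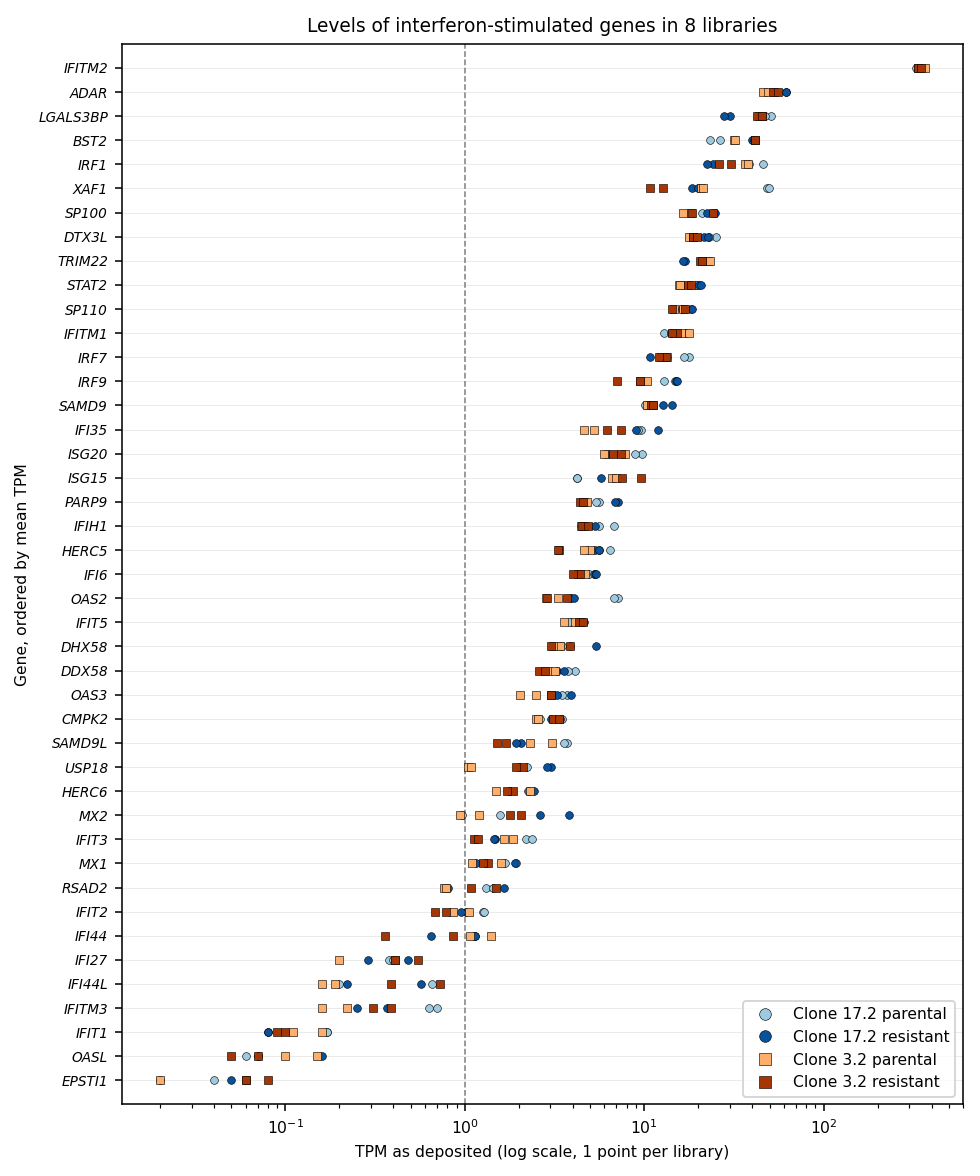
TPM as deposited on a log axis for the 43 ISGs, 1 point per library, ordered by mean TPM, with a dashed line at 1 TPM. *IFITM2* stands alone at 327 to 367 TPM, and 6 genes at the bottom lie below 1 TPM in all 8 libraries.

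The first question was whether ISG RNA differed between resistant and parental cells of C17.2. In this clone 13 of 37 tested ISGs fell and 3 rose. Those that fell included the transcription factors *IRF1* and *IRF7*, the RNA sensors *DDX58* and *IFIH1*, the 2-5A synthetase *OAS2* and the pro-apoptotic gene *XAF1*, and those that rose were *BST2*, *MX2* and *SAMD9*. Calls came from limma with Benjamini-Hochberg adjustment over all 15614 genes that reached 1 TPM in at least 1 library, at an adjusted p below 0.05, on log2(TPM + 1) after scaling of the libraries by a trimmed mean of log ratios. All log2 fold changes below are differences between such values, and the added 1 shrinks them where TPM is low. Over all tested genes 13.9% were called lower and 13.4% higher, so the 35.1% of ISGs called lower lay above the background and the 8.11% called higher below it. In all 43.2% of the ISGs were called, against 27.3% of all genes. Without a test, 8 of the 37 had both resistant libraries above both parental libraries after scaling and 21 had both below, where 33.3% and 32.7% of all genes did so. The median log2 fold change of the 37 ISGs was −0.15, against 0 for all genes, and their median absolute log2 fold change was 0.25, against 0.19. Only 1 member that was called, *XAF1*, changed by at least 2-fold on the scale tested. The balance depended on the scaling. On TPM as deposited, 7 ISGs were called higher and 9 lower and their median was −0.0031, while the median of all genes moved to 0.13 and 75.1% of all calls were higher, against 49.1% after scaling. Relative to the median of all genes, the ISGs lay lower under both.

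In C3.2 the same comparison called fewer ISGs, as it did for all genes. *XAF1*, *SAMD9L*, *HERC5* and *IRF1* fell, and *USP18* and *BST2* rose. The 4 lower calls were 10.8% of the tested ISGs, against a background of 6.90%, and the 2 higher calls were 5.41%, against 4.46%, which made 16.2% in all, against 11.4%. After scaling, 11 of the 37 had both resistant libraries above both parental libraries and 15 had both below, where 27.8% and 28.1% of all genes did so. The median log2 fold change of the 37 ISGs was −0.052, against 0 for all genes. Fitted without the other clone, the 4 libraries of C3.2 gave 0 ISG calls in limma, with 11 at an unadjusted p below 0.05, and 74 genes were called in all. On TPM rescaled over protein-coding genes the ISG median was 0.034 in this clone, where the median of all genes was 0.085 and 70.1% of all calls were higher, against 39.3% in the scaling used throughout. Both clones together called 1 ISG higher in each (*BST2*) and 4 lower in each (*XAF1*, *IRF1*, *SAMD9L* and *HERC5*), where 2.16% of all tested genes were higher in both and 4.16% lower in both. None of the 37 (0) was called in opposite directions, against 0.820% of all tested genes, and 20 were called in neither clone, against 68.5% of all tested genes.

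**Figure D2:**
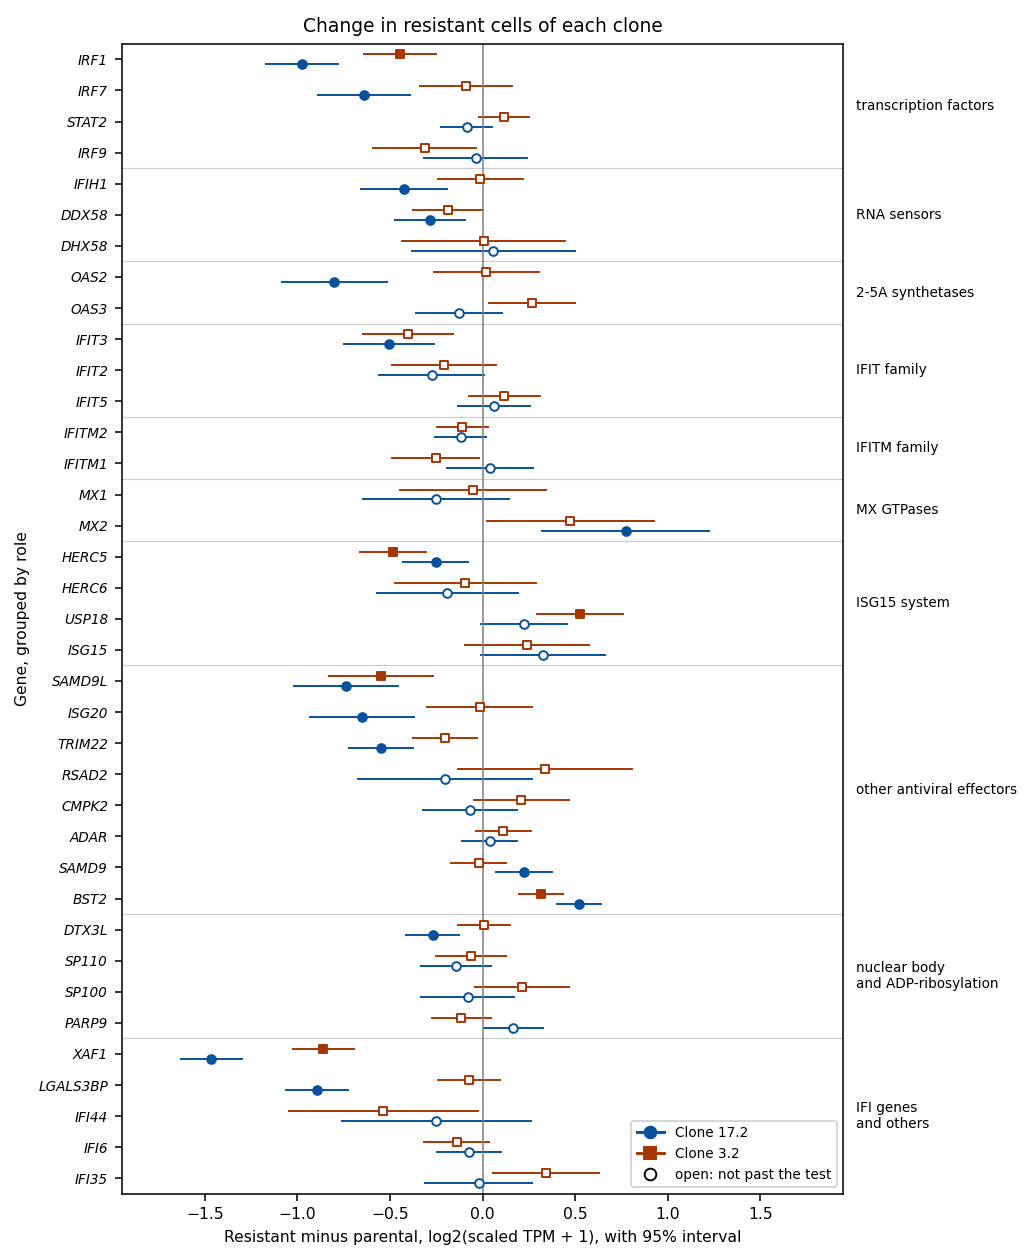
Log2 fold change of resistant against parental cells for the 37 tested ISGs, grouped by role, with 95% intervals from limma, in C17.2 (circles) and C3.2 (squares). Filled symbols passed the test, and *XAF1* lies farthest from 0, at −1.47 in C17.2 and −0.86 in C3.2.

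*XAF1*, which encodes an antagonist of the apoptosis inhibitor XIAP, had the largest fall among the ISGs in both clones on the log2(scaled TPM + 1) scale. Without the added 1, the mean scaled TPM of *IFI44*, a low gene that was not called (adjusted p = 0.163, limma), fell further in C3.2, by 2.10-fold. *XAF1* lies on chromosome 17 at 6755447 to 6775647 on GRCh38. Parental cells of C17.2 had 48.4 and 49.7 TPM and resistant cells 18.4 and 19.9 TPM. Parental cells of C3.2 had 20.9 and 21.3 TPM and resistant cells 12.7 and 10.9 TPM. Resistant libraries thus lay below parental libraries in both clones. On TPM as deposited the parental cells of C3.2 were near the resistant cells of C17.2, but after scaling they lay higher, at 23.4 and 23.1 against 16.39 and 17.23. The log2 fold change was −1.47 ± 0.068 (SE, adjusted p = 5.83e-05, limma) in C17.2, a 2.87-fold lower scaled TPM, and −0.86 ± 0.068 (adjusted p = 0.0015, limma) in C3.2, a 1.88-fold lower scaled TPM. The fall in C17.2 was larger by −0.60 ± 0.096 (adjusted p = 0.0152, limma), a call lost when any of 5 libraries was left out, with adjusted p up to 0.0718 without the second C3.2 parental library. On the other strand *XAF1* overlaps exons of *PRAL*, which had at most 0.01 TPM.

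Among the transcription factors, *IRF1*, an activator of ISGs and of antigen presentation genes, fell in both clones. It was at 45.7 and 38.4 TPM in parental and 24.1 and 22.5 TPM in resistant cells of C17.2, and at 36.6 and 37.9 TPM in parental and 30.7 and 26.3 TPM in resistant cells of C3.2. The parental clones had a similar level, with a difference of −0.0021 ± 0.08 on the log2 scale. The fall was −0.98 ± 0.08 (adjusted p = 0.000501, limma) in C17.2 and −0.45 ± 0.08 (adjusted p = 0.0208, limma) in C3.2, and the difference of −0.53 ± 0.114 between them passed the test (adjusted p = 0.0364, limma), although leaving out any of 7 libraries ended that call (adjusted p up to 0.131 without the first C3.2 parental library). The C3.2 call was lost on TPM as deposited (adjusted p = 0.0785, limma) and without either C3.2 parental library or the second resistant one, at adjusted p up to 0.121. Exons of *IRF1* overlap *C5orf56* on the other strand, whose level of 15.0 to 27.4 TPM had log2 fold changes of 0.16 ± 0.084 in C17.2 and 0.22 ± 0.084 in C3.2, with no call. The library kit kept strand, but whether the counting used it is not given in the sources used here.

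*IRF7*, which drives later type I interferon genes, was at 17.7 and 16.8 TPM in parental and 13.4 and 10.7 TPM in resistant cells of C17.2. Its log2 fold change was −0.64 ± 0.103 (adjusted p = 0.00596, limma), and leaving out either parental library of C17.2 put it at the threshold (adjusted p up to 0.0506). In C3.2 the groups overlapped as deposited, at 12.5 and 13.4 TPM in parental and 13.2 and 12.2 TPM in resistant cells. After scaling they were apart, at 13.9 and 14.5 in parental and 13.5 and 13.1 in resistant cells. The log2 fold change of *IRF7* in C3.2, −0.088, was not called (adjusted p = 0.627, limma). *STAT2* and *IRF9*, which encode subunits of ISGF3, were called in neither clone, with log2 fold changes of −0.086 and 0.11 for *STAT2* and −0.037 and −0.31 for *IRF9* in C17.2 and C3.2. *IRF9* shares 15.4% of its exon windows with an overlapping gene model, AL136295.5, so its level is uncertain.

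Of the 3 sensors of viral RNA in the cytoplasm, *IFIH1*, which encodes MDA5, and *DDX58*, which encodes RIG-I, fell in C17.2. *IFIH1* went from 6.77 and 5.63 TPM in parental to 4.42 and 5.32 TPM in resistant cells of C17.2, and the groups did not overlap. In C3.2 it was at 4.47 and 4.61 TPM in parental and 4.53 and 4.89 TPM in resistant cells, so that all these libraries lay close together. *DDX58* had 4.14 and 3.75 TPM in parental and 3.27 and 3.57 TPM in resistant cells of C17.2, and 2.93 and 3.19 TPM against 2.61 and 2.79 TPM in C3.2. The log2 fold changes in C17.2 were −0.43 ± 0.096 for *IFIH1* (adjusted p = 0.0202, limma) and −0.28 ± 0.079 for *DDX58* (adjusted p = 0.0402, limma). Both calls rested on single libraries and on the scaling, with adjusted p up to 0.121 for *IFIH1* and 0.147 for *DDX58* when the first C17.2 parental library was left out, and 0.0831 and 0.205 on TPM as deposited. *DHX58*, a regulator of these sensors, was called in neither clone, at 3.02 to 5.37 TPM.

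The 2-5A synthetases make the second messenger that activates RNase L. *OAS2* was at 7.14 and 6.83 TPM in C17.2 parental cells and at 3.91 and 4.09 TPM in C17.2 resistant cells. In C3.2 it was at 2.84 and 3.30 TPM in parental and 2.87 and 3.70 TPM in resistant cells. The parental cells of C17.2 therefore stood above the other 6 libraries, which lay between 2.84 and 4.09 TPM. The log2 fold change was −0.80 ± 0.118 in C17.2 (adjusted p = 0.00426, limma) and 0.021 ± 0.118 in C3.2, with a 95% interval of −0.26 to 0.31. The difference between the clones was −0.82 ± 0.167 (adjusted p = 0.0313, limma), and it lost its call when any of 6 libraries was left out (adjusted p up to 0.126 without the first C3.2 parental library). *OAS3*, its neighbor 1934 bases away on chromosome 12, was called in neither clone. *OASL* had at most 0.16 TPM.

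In the IFIT family, whose proteins bind foreign RNA, *IFIT3* fell in C17.2 from 2.19 and 2.37 TPM to 1.47 and 1.45 TPM. In C3.2 it stood at 1.65 and 1.85 TPM in parental and 1.13 and 1.18 TPM in resistant cells. Resistant libraries were below parental libraries in both clones, with log2 fold changes of −0.51 ± 0.101 (adjusted p = 0.0129, limma) and −0.40 ± 0.101 (adjusted p = 0.0545, limma). The C3.2 value thus missed the threshold, and it passed with a pseudocount of 0.1 (adjusted p = 0.0442), without the intensity trend (0.0272) and with robust moderation (0.0494). *IFIT2* had log2 fold changes of −0.28 and −0.21 and *IFIT5* of 0.062 and 0.12 in C17.2 and C3.2, and neither was called. Exons of *IFIT2* and *IFIT3* overlap *LIPA* on the other strand, which was at 12.3 to 16.4 TPM, above both genes, and had log2 fold changes of −0.04 and 0.10.

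In the IFITM family, *IFITM1* and *IFITM2* were called in neither clone. *IFITM2* had log2 fold changes of −0.12 ± 0.057 and −0.11 ± 0.057, with a 95% interval in C17.2 of −0.26 to 0.02. The 2 MX GTPases, which trap viral particles, differed in their calls. *MX2*, which restricts retroviruses, was at 1.58 and 0.96 TPM in parental and 3.81 and 2.64 TPM in resistant cells of C17.2, and at 0.94 and 1.20 TPM in parental and 1.79 and 2.05 TPM in resistant cells of C3.2. Both resistant libraries lay above both parental libraries in each clone, but at low levels. The rise of 0.77 ± 0.188 in C17.2 passed the test (adjusted p = 0.0256, limma) and that of 0.47 ± 0.188 in C3.2 did not (adjusted p = 0.164, limma). The C17.2 call was lost when any of 5 libraries was left out, with an adjusted p of 0.134 without the second C17.2 parental library. *MX1*, which lies 10626 bases from *MX2* on chromosome 21, was called in neither clone, at 1.10 to 1.94 TPM.

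**Figure D3:**
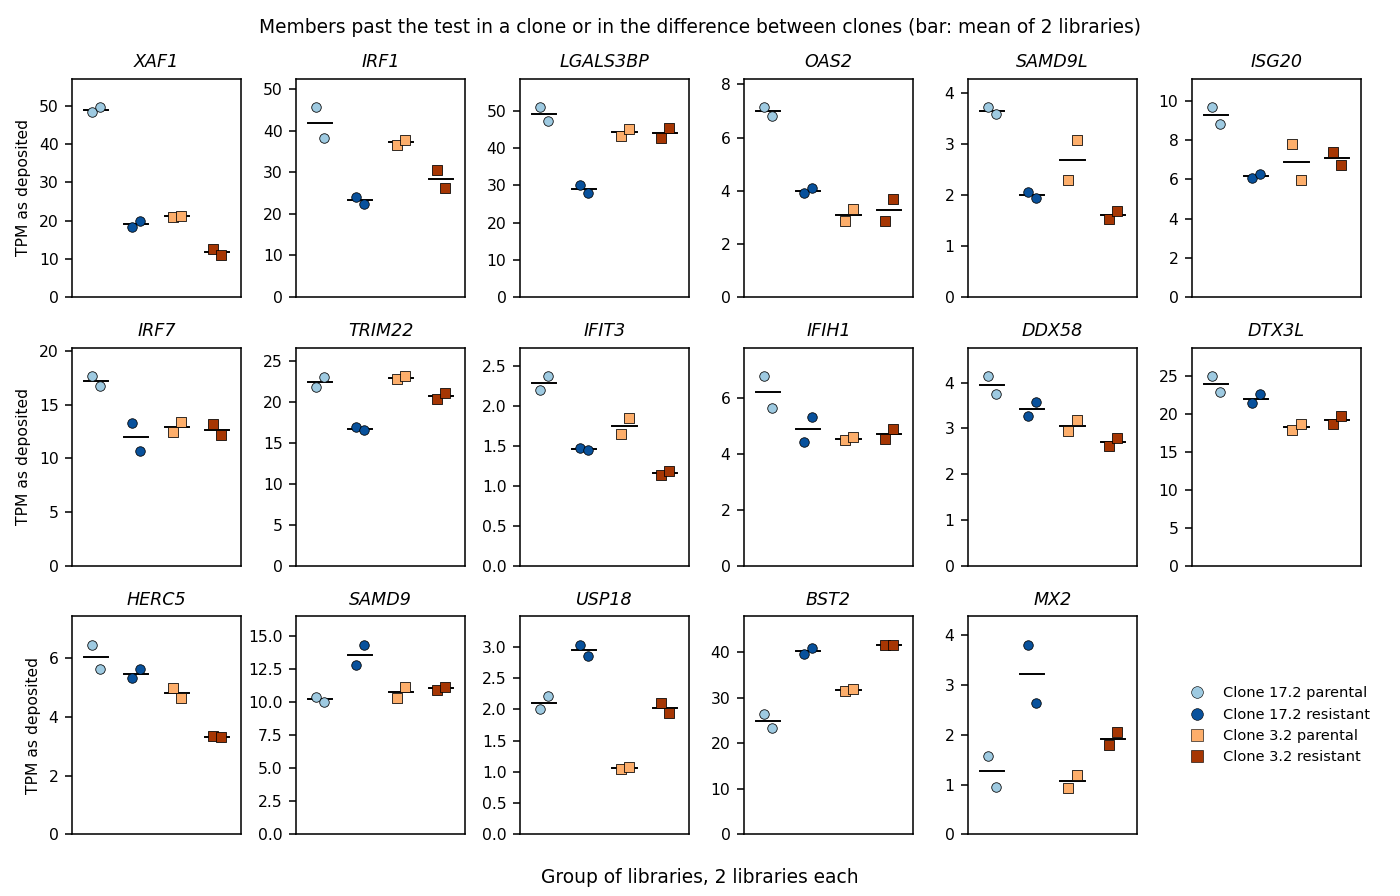
TPM as deposited, from 0, in the 8 libraries for the 17 ISGs called in a clone or in the difference between clones, with a bar at the mean of the 2 libraries of a group. *XAF1*, *IRF1*, *SAMD9L* and *HERC5* were lower and *BST2* was higher in resistant cells of both clones, and *LGALS3BP* was lower in resistant cells of C17.2 with no call in C3.2.

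The ISG15 system attaches the ubiquitin-like protein ISG15 to other proteins. *ISG15* itself was at 4.22 and 4.25 TPM in parental and 6.77 and 5.74 TPM in resistant cells of C17.2, and at 6.59 and 6.94 TPM in parental and 7.53 and 9.65 TPM in resistant cells of C3.2. Resistant libraries lay above parental libraries in both clones, yet neither difference passed the test, with log2 fold changes of 0.33 ± 0.139 (adjusted p = 0.134, limma) and 0.24 ± 0.139 (adjusted p = 0.317, limma). *USP18*, the protease that removes ISG15 and also restrains the interferon receptor, was at 1.04 and 1.08 TPM in parental and 2.10 and 1.94 TPM in resistant cells of C3.2. In C17.2 it was at 2.00 and 2.21 TPM in parental and 3.03 and 2.86 TPM in resistant cells. Its rise of 0.53 ± 0.096 in C3.2 passed the test (adjusted p = 0.0213, limma) and was lost when any library of that clone was left out (adjusted p up to 0.0988 without the first parental library). The value of 0.23 ± 0.096 in C17.2 did not pass (adjusted p = 0.136, limma) but passed on TPM as deposited (adjusted p = 0.0332), and the difference between clones was not called. *USP18* shares 7.52% of its exon windows with *USP41*.

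*HERC5*, the main ISG15 ligase, had 6.44 and 5.63 TPM in parental and 5.31 and 5.62 TPM in resistant cells of C17.2. These groups nearly met as deposited and were apart after scaling, at 6.13 and 5.70 in parental and 4.73 and 4.86 in resistant cells. In C3.2 it fell from 4.99 and 4.62 TPM to 3.35 and 3.30 TPM. The log2 fold changes were −0.25 ± 0.073 (adjusted p = 0.045, limma) and −0.48 ± 0.073 (adjusted p = 0.0121, limma). The C17.2 call was lost when any of the 8 libraries was left out, with adjusted p up to 0.19 without the first C17.2 parental library, and on TPM as deposited (0.309). The C3.2 call was lost without the first C3.2 parental library (0.0839). *HERC6*, its neighbor on chromosome 4, was called in neither clone.

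*BST2*, which encodes tetherin, a protein that holds budding virus at the cell surface, was the one ISG called higher in both clones. C17.2 had 26.5 and 23.3 TPM in parental and 39.7 and 41.1 TPM in resistant cells. C3.2 had 31.5 and 32.04 TPM in parental and 41.6 and 41.6 TPM in resistant cells. Resistant libraries lay above parental libraries in both clones. The resistant cells of the clones were close as deposited but not after scaling, at 35.4 and 35.5 in C17.2 and 42.7 and 44.9 in C3.2. Its log2 fold change was 0.52 ± 0.049 (adjusted p = 0.000821, limma) in C17.2 and 0.32 ± 0.049 (adjusted p = 0.0138, limma) in C3.2, the latter lost without either C3.2 parental library or the second resistant one (adjusted p up to 0.0837 without the first parental library). The *BST2* window held both an ISRE and a GAS core.

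The paralogs *SAMD9* and *SAMD9L*, antiviral factors that restrain growth and lie 12032 bases apart on chromosome 7, had calls of opposite sign in C17.2. *SAMD9L* was at 3.72 and 3.58 TPM in parental and 2.05 and 1.94 TPM in resistant cells of C17.2, and at 2.30 and 3.07 TPM in parental and 1.52 and 1.69 TPM in resistant cells of C3.2. *SAMD9* was at 10.4 and 10.1 TPM in parental and 12.8 and 14.4 TPM in resistant cells of C17.2, and at 10.4 and 11.1 TPM against 11.0 and 11.2 TPM in C3.2, where the groups overlapped after scaling. The log2 fold change of *SAMD9L* was −0.74 ± 0.117 (adjusted p = 0.0055, limma) in C17.2 and −0.55 ± 0.117 (adjusted p = 0.0326, limma) in C3.2, where the call was lost when any of the 8 libraries was left out (adjusted p up to 0.123 without the second C3.2 parental library). The rise of *SAMD9* by 0.22 ± 0.062 in C17.2 was small (adjusted p = 0.0414, limma) and was lost when any of 6 libraries was left out, with adjusted p up to 0.167 without the second C17.2 resistant library.

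*ISG20*, an exonuclease that degrades viral RNA, and *TRIM22*, a ubiquitin ligase, fell in C17.2. *ISG20* was at 9.69 and 8.86 TPM in parental and 6.07 and 6.30 TPM in resistant cells of C17.2, and at 7.79 and 5.99 TPM in parental and 7.42 and 6.74 TPM in resistant cells of C3.2. *TRIM22* was at 21.8 and 23.0 TPM in parental and 16.99 and 16.5 TPM in resistant cells of C17.2, and at 22.8 and 23.2 TPM against 20.4 and 21.1 TPM in C3.2. For *ISG20* the C3.2 groups overlapped, and for *TRIM22* they did not. In C17.2 the log2 fold change of *ISG20* was −0.65 ± 0.117 (adjusted p = 0.00875, limma), lost when any library of that clone was left out (adjusted p up to 0.0698 without the first parental library), and that of *TRIM22* was −0.55 ± 0.071 (adjusted p = 0.00268, limma). The *TRIM22* value in C3.2, −0.20 ± 0.071, did not pass (adjusted p = 0.125, limma). *ADAR*, *RSAD2* and *CMPK2* were called in neither clone.

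*LGALS3BP*, which encodes a secreted galectin-binding glycoprotein, had the clearest difference between the clones. It was at 51.1 and 47.3 TPM in parental and 30.1 and 28.00 TPM in resistant cells of C17.2. In C3.2 it was at 43.4 and 45.3 TPM in parental and 42.8 and 45.5 TPM in resistant cells. The resistant cells of C17.2 thus stood below all other libraries, which lay between 42.8 and 51.1 TPM. The log2 fold change was −0.90 ± 0.07 (adjusted p = 0.000425, limma) in C17.2 and −0.073 ± 0.07 (95% interval −0.24 to 0.10) in C3.2, and the difference of −0.82 ± 0.099 (adjusted p = 0.00611, limma) held without each library in turn.

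*DTX3L* and *PARP9*, whose products form a complex for ubiquitination and ADP-ribosylation, start from overlapping ends on opposite strands of chromosome 3. *DTX3L* was at 25.0 and 23.0 TPM in parental and 21.5 and 22.6 TPM in resistant cells of C17.2, a log2 fold change of −0.27 ± 0.059 (adjusted p = 0.0175, limma) that was lost when any library of the clone was left out (adjusted p up to 0.0936 without the first parental library) and on TPM as deposited (0.229). *PARP9* was at 5.61 and 5.40 TPM in parental and 7.17 and 6.92 TPM in resistant cells, and its value of 0.17 ± 0.066 did not pass (adjusted p = 0.116, limma). Neither was called in C3.2. The nuclear body genes *SP100* and *SP110* were called in neither clone, nor were *IFI6*, *IFI35* and *IFI44*. Over the 20 ISGs called in neither clone, log2 fold changes lay between −0.28 and 0.33 in C17.2 and between −0.54 and 0.34 in C3.2.

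The difference between the clones was tested as an interaction. Of the 37 ISGs, 4 passed, each with the larger fall in C17.2 (*XAF1*, *LGALS3BP*, *OAS2* and *IRF1*), and 0 passed in the other direction, with 14 of the 37 at an unadjusted p below 0.05. The 4 are 10.8% of the ISGs, and 4.99% of all tested genes passed in that direction, 4.91% in the other and 9.90% in either. Beyond these 4, a call in C17.2 without one in C3.2 is not shown to differ between the clones.

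Parental cells of the clones were compared next, which asks how far ISG levels differed before resistance. C3.2 had more *ISG15*, *IFITM1*, *IFITM2* and *BST2* and less *XAF1*, *OAS2*, *OAS3*, *IFI35*, *USP18* and *DTX3L* than C17.2. These are 4 higher and 6 lower calls of 37, or 10.8% and 16.2%, against 12.0% and 10.5% of all tested genes, and 27% together, against 22.5%. The largest differences were −1.02 ± 0.068 for *XAF1* (adjusted p = 0.00038, limma), −0.84 ± 0.118 for *OAS2* (adjusted p = 0.00474), 0.71 ± 0.139 for *ISG15* (adjusted p = 0.0148) and −0.68 ± 0.119 for *IFI35* (adjusted p = 0.0105). *IFI35*, which binds other interferon-induced proteins, was at 9.58 and 9.25 TPM in C17.2 and 4.60 and 5.25 TPM in C3.2 parental cells. Without the second C17.2 parental library its adjusted p was 0.0813, and without the first that of *ISG15* was 0.102 and that of *DTX3L* 0.17. The calls of *OAS3* (0.154) and *USP18* (0.0619) were lost without the first C3.2 parental library, and those of *IFITM1* (0.12) and *IFITM2* (0.177) without the second. These were not the only libraries that mattered. The calls of *OAS3*, *IFITM2* and *DTX3L* were each lost when any of 6 libraries was left out. Those of *IFITM1*, *IFI35* and *ISG15* were each lost for any of 4, and that of *USP18* for any of 3. The difference for *IFITM2*, 0.22 ± 0.057 (adjusted p = 0.0397, limma), changed sign under quantile normalization, to −0.086. On TPM as deposited 2 ISGs were higher and 9 lower, and 19% of all calls were higher, against 53% after scaling. The libraries of each clone carry their own number in the labels, so clone and that number cannot be told apart. This comparison and the resistance comparisons share the parental libraries, so *XAF1* and *OAS2*, lower in C3.2 parental cells and falling more in C17.2, rest partly on the same values.

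The pathway that acts before these genes was described with lists of other interferon genes. Of 22 interferon ligand genes, 17 were listed at 0 in all libraries and the highest value was 0.15 TPM, for *IFNB1* in a parental library of C17.2, so no ligand was tested. Among 6 receptor genes, *IFNAR2* rose in C17.2 from 5.99 and 6.32 TPM to 9.55 and 8.79 TPM (log2 fold change 0.36 ± 0.083, adjusted p = 0.0211, limma). *IFNLR1*, the lambda interferon receptor, fell there from 1.11 and 1.03 TPM to 0.29 and 0.23 TPM (−0.74 ± 0.143, adjusted p = 0.0115, limma). This gene reached 1 TPM only in the parental libraries of C17.2 and lay between 0.23 and 0.40 TPM elsewhere. It thus entered the test through the group from which it fell, and its p-values carry that choice. *IL10RB*, its partner chain, rose in C3.2 from 4.67 and 5.05 TPM to 6.85 and 8.33 TPM (0.50 ± 0.113, adjusted p = 0.0413, limma). Of the receptor list 1 gene rose and 1 fell in C17.2, and 1 rose and 0 fell in C3.2. Of all tested genes, 27.3% were called in either direction in C17.2 and 11.4% in C3.2. The *IFNAR2* call was lost without the first parental or the first resistant library of C17.2 (adjusted p up to 0.12), and that of *IL10RB* without any of 7 libraries (adjusted p up to 0.196 without the first C3.2 parental library).

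Of 4 tested JAK-STAT signal transducers, *JAK2* and *STAT3* rose in both clones and none (0) fell. Of all tested genes 13.4% were called higher in C17.2 and 4.46% in C3.2. *JAK2*, a kinase of the type II interferon receptor and of cytokine receptors, went from 1.93 and 1.70 TPM to 4.43 and 4.63 TPM in C17.2 and from 2.01 and 1.52 TPM to 3.63 and 3.38 TPM in C3.2. The resistant libraries stood well apart from the parental ones, with log2 fold changes of 0.84 ± 0.11 (adjusted p = 0.00274, limma) and 0.68 ± 0.11 (adjusted p = 0.0153, limma). *STAT3*, which transmits cytokine signals, had 0.17 ± 0.046 (adjusted p = 0.0348, limma) and 0.33 ± 0.046 (adjusted p = 0.00993, limma). The 4 genes had median log2 fold changes of 0.14 in C17.2 and 0.23 in C3.2, against 0 for all genes. The *JAK2* call in C3.2 was lost without its second parental or second resistant library (adjusted p up to 0.0643). That of *STAT3* was lost in C17.2 without any library of that clone (up to 0.123 without the first parental library) and in C3.2 without the first parental library (0.0706). JAK2 and STAT3 serve many cytokines besides interferon.

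Of 10 tested negative regulators, 2 rose and 2 fell in C17.2, and 1 rose and 2 fell in C3.2. The shares of all tested genes that rose and fell were 13.4% and 13.9% in C17.2 and 4.46% and 6.90% in C3.2. *PTPN6*, which encodes the phosphatase SHP-1, rose in both, from 187 and 183 TPM to 288 and 311 TPM in C17.2 (0.53 ± 0.05, adjusted p = 0.000813, limma) and from 171.6 and 168.4 TPM to 235 and 215 TPM in C3.2 (0.33 ± 0.05, adjusted p = 0.0119, limma). *PTPN11*, which encodes SHP-2, rose in C17.2 (0.28 ± 0.067, adjusted p = 0.0235, limma). *IRF2*, a competitor of IRF1 at promoters, and *IRF2BP2*, its corepressor, fell in both clones, with log2 fold changes of −0.26 and −0.28 for *IRF2* and −0.27 and −0.35 for *IRF2BP2* in C17.2 and C3.2. Leaving out 1 library ended the call of *PTPN11* for 6 libraries (adjusted p up to 0.126 without the first C17.2 parental library) and, in C3.2, those of *PTPN6* and *IRF2BP2* without either parental library (up to 0.0733 and 0.0724) and of *IRF2* without the first parental or second resistant library (up to 0.0827). On TPM as deposited *IRF2* and *IRF2BP2* were not called in either clone (adjusted p of 0.206 and 0.323 in C17.2).

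Of the 14 tested nucleic acid sensors and adaptors outside the members, 0 rose and 3 fell in C17.2 and 0 rose and 1 fell in C3.2. Of all tested genes 13.4% rose and 13.9% fell in C17.2, and 4.46% rose and 6.90% fell in C3.2. In either direction 27.3% of all tested genes were called in C17.2 and 11.4% in C3.2. The share of sensors called in either direction lay below that of all genes, and the share that fell lay above it. These shares rest on few genes, and the difference was not tested. *TLR9*, a receptor for DNA, fell in C17.2 from 3.23 and 2.87 TPM to 0.88 and 1.07 TPM (−1.11 ± 0.17, adjusted p = 0.0049, limma). *IFI16*, a nuclear DNA sensor, fell in both clones (−0.52 and −0.34, adjusted p = 0.000577 and 0.00824, limma), the latter lost without the first C3.2 parental library (0.0628), and *CGAS*, the cytosolic DNA sensor, fell slightly in C17.2 (−0.18, adjusted p = 0.0446, limma), a call lost without any of 7 libraries (adjusted p up to 0.149 without the second C17.2 parental library).

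A further list of other interferon-responsive genes had 47 tested genes, of which 7 rose and 13 fell in C17.2, and 1 rose and 3 fell in C3.2. Against 27.3% of all tested genes called in C17.2 and 11.4% in C3.2, the list had more calls in C17.2 and fewer in C3.2, which was not tested. *APOL6*, a pro-apoptotic apolipoprotein, was at 13.4 and 13.1 TPM in parental and 6.68 and 6.76 TPM in resistant cells of C17.2 and at 5.76 and 6.20 TPM in parental and 4.82 and 4.80 TPM in resistant cells of C3.2. Its log2 fold changes were −1.02 ± 0.056 (adjusted p = 0.00011, limma) and −0.32 ± 0.056 (adjusted p = 0.0185, limma), the latter lost when any library of C3.2 was left out, with adjusted p up to 0.0999 without the second parental library. *IFI30*, a lysosomal thiol reductase, fell in C17.2 from 16.1 and 15.9 TPM to 8.92 and 9.48 TPM (−0.88 ± 0.087, adjusted p = 0.000943, limma). Also in C17.2, *TRIM14*, an adaptor in antiviral signaling (−0.61, adjusted p = 0.00211, limma), and *UBE2L6*, the conjugating enzyme for ISG15 (−0.58, adjusted p = 0.000917, limma), fell, whereas *GBP2*, which encodes a guanylate-binding protein, rose (0.65, adjusted p = 0.0169, limma). In C3.2, *UBE2L6* and *MOV10*, an RNA helicase, fell (−0.28 and −0.31, adjusted p = 0.0303 and 0.0188, limma) and *SLFN5* rose (0.57, adjusted p = 0.00513, limma). *MOV10* also fell and *SLFN5* also rose in C17.2 (−0.26 and 0.57, adjusted p = 0.0153 and 0.00164, limma), and the difference between the clones was called for neither (adjusted p = 0.72 and 0.998, limma). Calls lost without 1 library were, in C17.2, those of *GBP2* (log2 fold change 0.54 without the second parental library) and *MOV10* (−0.23 without the second resistant library). In C3.2 they were those of *UBE2L6* and *MOV10* (−0.23 and −0.29 without the second parental library) and *SLFN5* (0.58 without the first). In that clone the call was lost for any of 6 libraries for *UBE2L6*, 5 for *MOV10* and 2 for *SLFN5*. On TPM as deposited *MOV10* was called in neither clone (adjusted p = 0.334 in C17.2 and 0.103 in C3.2, limma). *UBE2L6* was not called in C3.2 on that scale (adjusted p = 0.104, limma). Median log2 fold changes of the list were −0.049 in C17.2 and −0.097 in C3.2, against 0 for all genes.

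**Figure D4:**
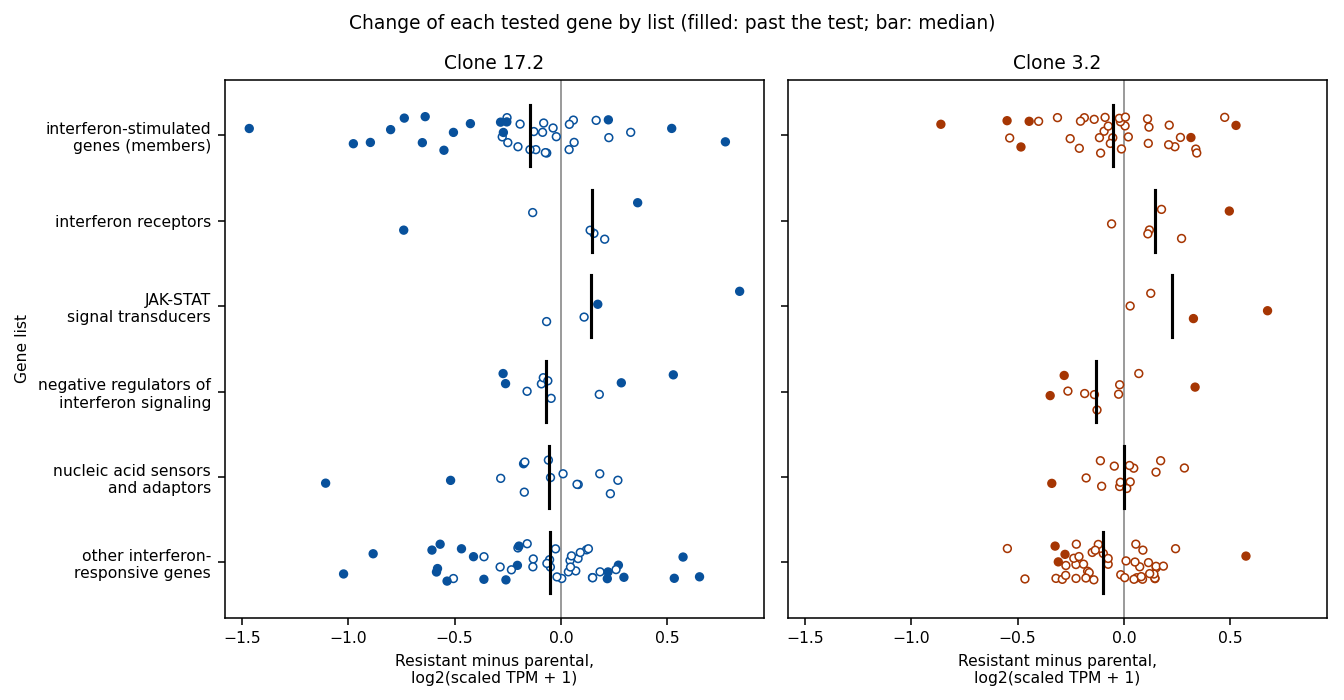
Log2 fold change of resistant against parental cells for each tested gene of the ISGs and of 5 lists of other interferon genes, in C17.2 (left) and C3.2 (right), with a bar at the median and filled points for genes past the test. The ISG median lies at −0.15 in C17.2 and −0.052 in C3.2, and *TLR9* in C17.2 is the lowest point of the sensors, at −1.11.

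Libraries of bulk cells cannot tell apart fewer cells of a type and less RNA per cell, and markers of other cells were examined beside these values. T cell markers other than *TRAC* (5 of 6), 3 of 5 NK cell markers, 4 of 6 myeloid markers and 3 of 5 plasmacytoid dendritic cell markers, *CLEC4C* and *LILRA4* among them, stayed below 1 TPM in all libraries. *TRAC* was at 38.6 to 49.2 TPM and fell in C17.2 and C3.2 (−0.42 and −0.22, adjusted p = 0.000667 and 0.0186, limma). The summed myeloid list was at 2.65 to 4.99 TPM. In it *CSF1R* fell in C17.2 (−0.64, adjusted p = 0.0421, limma). *LYZ* lay higher in resistant cells of both clones without a call (0.64 and 0.85, adjusted p = 0.0713 and 0.055, limma). *LYZ* reached 1 TPM only in resistant libraries. It thus entered the test through the group where it was high, and its p-values carry that choice. The summed NK list was at 9.44 to 11.6 TPM in parental and 16.8 to 17.5 TPM in resistant cells of C17.2. In C3.2 it was at 8.33 to 8.63 TPM in parental and 9.44 to 10.9 TPM in resistant cells. All these sums are of TPM as deposited, and the C17.2 resistant libraries had the largest scaling factors, 1.12 and 1.16. In C17.2 *NKG7* rose (0.51 ± 0.084, adjusted p = 0.00666, limma), and *NCAM1* lay higher without a call (0.42 ± 0.151, adjusted p = 0.0877, limma). Neither was called in C3.2 (0.18 and 0.055, adjusted p = 0.231 and 0.858, limma). B lineage markers were present, with 8 of 9 tested, and their sum was at 835 to 887 TPM in parental and 779 to 783 TPM in resistant cells of C17.2 and at 820 to 874 TPM in parental and 703 to 739 TPM in resistant cells of C3.2. *IGLL1*, a part of the surrogate light chain of pre-B cells, fell in C17.2 and C3.2 (−2.16 and −2.35, adjusted p = 2.28e-05 and 0.000122, limma). RNA of the tagged gene *CTCF* rose in both, from 35.4 and 33.7 TPM to 51.1 and 54.7 TPM in C17.2 and from 32.2 and 32.3 TPM to 44.2 and 41.5 TPM in C3.2 (log2 fold changes 0.44 and 0.34, adjusted p = 0.000795 and 0.0068, limma). The part of these changes in the ISG values was not tested.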

How the data were processed

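RNA-seq of 8 libraries was used, grouped by the clone and state in their labels. Per the methods and processing notes, reads were trimmed (TrimGalore 0.6.3) and aligned to GRCh38.p13 (STAR 2.7.9a), genes of Gencode release 31 were quantified with RSEM 1.3.1, and the authors deposited TPM per gene. The methods describe paired-end and the labels single-end reads. The sequencing depth cannot be read from TPM and is unknown.

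Genes with at least 1 TPM in at least 1 library were kept from the deposited TPM (15614 of 60754). Libraries were scaled by a mean log2 ratio trimmed by 30% of ratios and 5% of means at each end (factors 0.893 to 1.16). Log2(scaled TPM + 1) was tested, two-sided, in limma 3.58.1 (R 4.3.3) using lmFit, contrasts.fit and a trended eBayes, with the 4 groups in 1 model, no covariate, Benjamini-Hochberg adjustment over all tested genes and a threshold of 0.05. This follows the design of the study, whose limma-voom fit needs counts. The model was also run on simulated data with independent noise in each library. Such data cannot show whether the libraries of a group here are technical repeats. For 2 libraries against 2, the smallest exact permutation p is 0.333. Across genes, which are not independent replicates, Pearson's r between the libraries of a group was 0.968 to 0.979.

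The members and gene lists were chosen with earlier results of these data known. One gene of the signal transducer list is not reported here and was left out of its counts and medians. Full values were given for members past the threshold in a clone or in the difference between clones, and for each other list the genes past the threshold in a clone, at most the 5 with the largest change per clone. Gene positions and overlaps came from Gencode release 44 on GRCh38 and promoter sequences from RefSeq (GRCh38.p14). Alternatives were TPM as deposited, rescaling over protein-coding genes, quantile normalization, a pseudocount of 0.1, no filter, a mean TPM of at least 1, no intensity trend, robust moderation, each clone alone and leaving out each library. Tables and plots were made in Python 3.11.15 (pandas 2.3.3, matplotlib 3.10.9).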

Additional observations from a re-analysis of the deposited data

Results flagged for a closer look

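Resistance-associated changes that differed between the clones by the interaction test were flagged for 4 ISGs, with a difference (C17.2 minus C3.2, log2 scale) of −0.60 for *XAF1*, −0.53 for *IRF1*, −0.82 for *LGALS3BP* and −0.82 for *OAS2* (adjusted p = 0.0152, 0.0364, 0.00611 and 0.0313, limma). Among the other interferon genes named in the text, the difference was −0.70 for *APOL6*, −0.70 for *IFI30*, −0.85 for *IFNLR1*, 0.41 for *PTPN11* and −1.39 for *TLR9* (adjusted p = 0.00496, 0.0202, 0.0496, 0.0462 and 0.0195, limma). In *XAF1*, *OAS2*, *APOL6*, *IFNLR1* and *TLR9* the parental cells of the clones also differed, and these comparisons share the parental libraries. *IFNLR1* was tested only because its level in C17.2 parental cells reached 1 TPM. Leaving out 1 library at a time kept the calls of *LGALS3BP* and *APOL6* and ended each of the other 7 for at least 5 of the 8 libraries, with the highest adjusted p between 0.0714 (*IFNLR1*) and 0.154 (*PTPN11*), both without the first C3.2 parental library.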

How the results depend on the processing

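No paired analysis was possible because the labels give parental and resistant libraries no shared replicate numbers. The counts of ISGs called higher in C17.2 were 7 on TPM as deposited, 1 without a filter and 1 with that clone alone, against 3. Of all genes, 3849 of 15614, 1866 of 30771 and 1703 of 15614 were called higher in these runs, against 2094 of 15614. In C3.2, without a filter, 1 ISG and 391 of 30771 genes were higher, and 1167 genes were called in all. On TPM as deposited 2 ISGs and 523 of 15614 genes were lower in C3.2. With this clone alone 0 ISGs were higher, 0 lower and 74 genes were called. Between the parental clones 2 ISGs and 742 of 15614 genes were higher on TPM as deposited. Leaving out 1 library at a time gave 1 to 3 ISGs higher and 7 to 12 lower in C17.2 (2374 to 4551 genes called in all), 0 to 2 higher and 1 to 4 lower in C3.2 (325 to 1785 genes), 1 to 4 lower in the difference between clones (541 to 1747 genes), and 1 to 4 higher and 2 to 6 lower between the parental clones (1550 to 3798 genes). The lowest counts in C17.2 came without either of its parental libraries (7 lower each), and those in C3.2 without its first parental library (1 lower). Of 16 ISG calls in C17.2, 8 passed under every alternative run (*BST2*, *IFIT3*, *IRF1*, *LGALS3BP*, *OAS2*, *SAMD9L*, *TRIM22* and *XAF1*), as did 0 of 6 in C3.2, 1 of 4 in the difference (*LGALS3BP*) and 3 of 10 between the parental clones (*BST2*, *OAS2* and *XAF1*).

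Signs changed for values near 0 in C3.2 that were not called. On TPM as deposited these were 0.043 for *IFIH1*, 0.042 for *ISG20* and 0.039 for *SAMD9*, and rescaled over protein-coding genes 0.075 for *IFIH1*, 0.0084 for *IRF7*, 0.075 for *ISG20*, 0.028 for *LGALS3BP* and 0.074 for *SAMD9*. Under quantile normalization *IFIH1* was at 0.0017, and *IFITM2* between the parental clones at −0.086. With 1 library left out, C3.2 values lay between −0.067 and 0.082 for *DTX3L*, −0.088 and 0.065 for *IFIH1*, −0.20 and 0.17 for *ISG20*, −0.15 and 0.0060 for *LGALS3BP*, −0.15 and 0.19 for *OAS2*, and −0.068 and 0.025 for *SAMD9*. TPM gives no depth, so precision rests on the spread between 2 libraries.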
